A study of Arabidopsis thaliana with 9 samples.

Results

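The GROWTH-REGULATING FACTOR (GRF) family of Arabidopsis thaliana was examined for binding of LEAFY (LFY), the helix-turn-helix transcription factor that specifies floral fate. The 9 family members, GRF1 to GRF9, were taken by locus from the 27444 protein-coding genes of the annotation. Peaks were assigned to a member when the summit, the position of highest enrichment within a peak, lay in the gene or up to 3 kb upstream of it. By this rule 2 of the 9 genes had a summit. GRF5 had 2 summits upstream of the gene, GRF3 had 1 summit just inside it, and GRF1, GRF2, GRF4, GRF6, GRF7, GRF8 and GRF9 had none. The family was chosen with the peaks already known, so this count and the enrichment at these summits are descriptions and carry no test.

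LFY-bound DNA was recovered with anti-LFY antibodies and sequenced (ChIP-seq) from root explants of the accession Landsberg erecta. All 9 samples carried 35S:LFY-GR, in which the constitutive 35S promoter drives, in most cell types, LFY joined to the steroid-responsive part of a glucocorticoid receptor. The protein enters the nucleus when the steroid dexamethasone is supplied. Roots of seedlings aged 3 weeks were kept for 5 days on callus inducing medium (CIM), and 3 samples received 5 µM dexamethasone and 3 samples a mock treatment for 1 h before harvest, next to 3 input samples without antibody. These durations follow the sample labels, and the study's methods also give 1 h of dexamethasone for the LFY ChIP-seq. The text that accompanies the series gives a longer treatment. Only the peaks of the pooled dexamethasone libraries over the pooled mock libraries were analysed, so no value below has an error between replicates, and input signal was not analysed here.

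GRF proteins are plant transcription factors that share a QLQ domain, which binds the GRF-INTERACTING FACTOR (GIF) coactivators, and a zinc-binding WRC domain, which contacts DNA. They promote cell proliferation in young organs, and several of them set leaf size. Most GRF transcripts carry a target site for the microRNA miR396, which limits their levels as organs mature, and TCP4, a transcription factor that ends proliferation in leaves, promotes miR396 expression.

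The sequence at the strongest of the 3 summits is shown first, because it holds an exact copy of CCANTGG, the palindromic core of the LFY consensus. At GRF5 (AT3G13960, TAIR10 chromosome 3, 4608076 to 4610497, plus strand) the stretch of 75 bases on each side of the summit nearer to the gene, chr3:4607152-4607302, plus strand, reads as follows, with the core in capitals.
GRF5 near summit: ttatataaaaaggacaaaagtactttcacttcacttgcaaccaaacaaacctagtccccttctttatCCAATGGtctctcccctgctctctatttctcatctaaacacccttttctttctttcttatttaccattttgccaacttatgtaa

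The other GRF5 summit lay farther upstream. Its window of the same size, chr3:4606196-4606346, plus strand, is shown because it holds no exact core but a pair of copies with 1 mismatch close to each other, both in capitals.
GRF5 far summit: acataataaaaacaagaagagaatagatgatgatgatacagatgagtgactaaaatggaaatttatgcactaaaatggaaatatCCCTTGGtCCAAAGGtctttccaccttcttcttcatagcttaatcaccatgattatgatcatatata

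To compare the best match at each summit, the 7 bases of the best core match nearest to the summit are given in capitals with 6 bases on each side, on the strand of the gene. The site upstream of APETALA1 (AP1), a MADS box gene for floral identity that LFY binds and activates, serves as the reference.
AP1 promoter (chr1:25986509-25986527, minus strand): gaaggaCCAGTGGtccgta
GRF5 near summit (chr3:4607213-4607231, plus strand): ctttatCCAATGGtctctc
GRF5 far summit (chr3:4606274-4606292, plus strand): aaatatCCCTTGGtccaaa
GRF3 summit (chr2:15273064-15273082, minus strand): tcttgcAGAGTGGttcttt

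GRF5 is a member whose overexpression enlarges leaves by prolonging cell proliferation and whose expression in crop tissue culture raises shoot regeneration. Its near peak spanned positions 4606915 to 4607404, a width of 490 bp. The summit was at 4607227. It stood 849 bp before the first base of GRF5 and 1714 bp past AT3G13950, the neighbour on the other side, and no other protein-coding gene claimed it under the rule. The deposited fold enrichment was 3.68 and the −log10 q-value was 82.6. These values rested on 424 dexamethasone reads and 90 mock reads at the summit, as recovered from the fold and the p-value. After scaling for depth by 0.788 the dexamethasone to mock ratio was 3.71, with an exact 95% interval of 2.95 to 4.71 that covers counting error only. Of all 1177 nuclear summits, 98.3% had fewer dexamethasone reads and 99.7% had a lower mock background, whereas 37.8% had a lower fold. The near GRF5 summit thus ranked 20 in dexamethasone reads, 4 in mock background and 732 in fold. Among the 20 summits with at least as many dexamethasone reads, it had the lowest fold, against a median of 9.73 and a maximum of 18.6.

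A mock background this high was rare in the list. Only 6 of the 1177 nuclear summits had 80 or more mock reads, and they included the AP1 promoter and the near GRF5 summit. These 6 summits had mock backgrounds of 81 to 106 reads, dexamethasone reads of 384 to 701 and folds of 3.61 to 5.65. The AP1 promoter summit, 164 bp upstream of the gene start, had 460 dexamethasone reads over 92 mock reads. Its ratio after depth scaling was 3.94, with an interval of 3.14 to 4.98. The intervals of AP1 and GRF5 overlapped over most of their length, so an order of the pair was not resolved at this depth. An exact core lay within 150 bp at 4 of the 6 summits, AP1 and GRF5 included, and within 5 bp at 2 of them. The shares over all nuclear summits were 13.1% and 2.72%. Of the 20 summits with at least the dexamethasone reads of the near GRF5 summit, 6 had an exact core within 150 bp. With 6 summits of high mock background, nothing is read from these counts. The source of the mock reads at GRF5 was not tested.

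**Figure D1:**
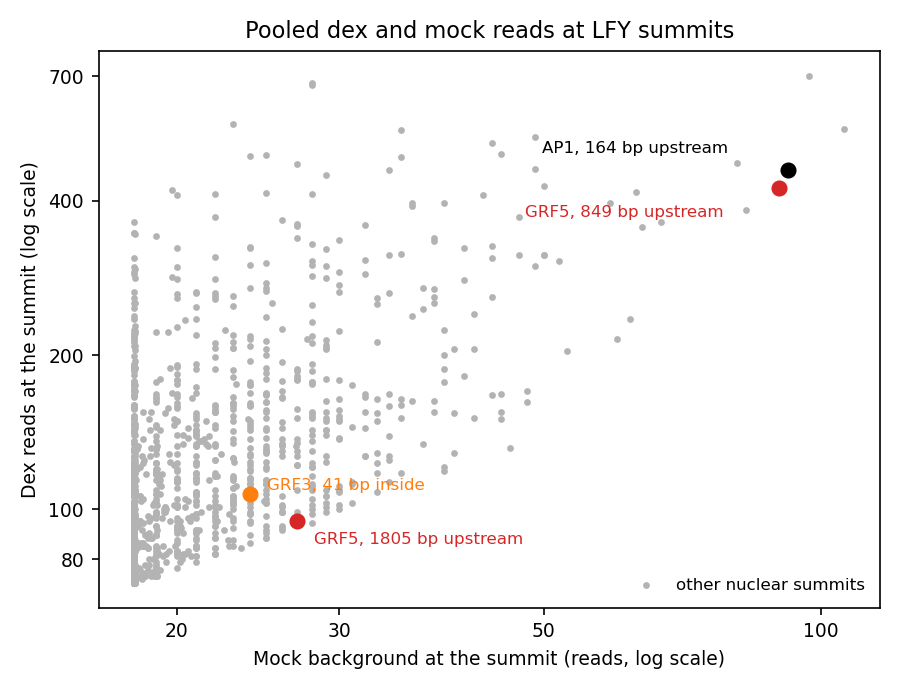
Mock background (x axis, reads, log scale) and dexamethasone reads (y axis, log scale) at each of the 1177 nuclear summits, each point a summit of the pooled libraries. The near GRF5 summit (424 over 90 reads) lies beside the AP1 promoter summit (460 over 92), whereas the far GRF5 summit (95 over 27) and the GRF3 summit (107 over 24) lie among the weaker peaks.

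The exact core at the near GRF5 summit, CCAATGG, was centred 5 bp from the summit. The core at AP1, CCAGTGG, was centred at the same distance of 5 bp from its summit. Over all nuclear summits an exact core was present within 150 bp at 13.1%, against 3.74% of windows 1000 bp to the left and 4.33% of windows 1000 bp to the right, and within 5 bp at 32 summits, or 2.72%. A second match within 150 bp of the near GRF5 summit, CCAATGC, lay 122 bp away and differed from the core by G7C, with positions counted from 1 at the 5′ end of the core on the strand of the gene.

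The far GRF5 peak spanned 4605899 to 4606377. Its summit, 4606271, was 1805 bp from the gene on the upstream side and only 758 bp past AT3G13950. The summits of the pair were 956 bp apart, and 537 bp without a peak lay between the peaks. The far peak had a fold of 2.71 and a −log10 q-value of 10.88, close to the limit of 10 that the list applied. It rested on 95 dexamethasone reads and 27 mock reads. The ratio after depth scaling was 2.77, with an interval of 1.79 to 4.42, and only 1.70% of nuclear summits had a lower fold. Its best core matches were CCCTTGG, 12 bp from the summit and differing by A3C, and CCAAAGG, 20 bp from the summit and differing by T5A. A match with at most 1 mismatch was present within 150 bp of 73.6% of all nuclear summits and in 50.3% of the windows to the left, so it sets this summit apart from few others. The letters TGGTCCA, in which the ends of the core are swapped and which overlaps both matches, lay 16 bp from the far summit. The pattern TGGNCCA was present within 150 bp of 11.1% of all nuclear summits. The intervals of the near and far GRF5 ratios overlapped.

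GRF3 (AT2G36400, chromosome 2, 15270088 to 15273115, minus strand) encodes a regulator of leaf and cotyledon size. Its peak spanned 15272963 to 15273266, a width of 304 bp, with the summit at 15273074. That position is 41 bp inside the gene, in the untranslated part of the first exon. The fold was 3.41 and the −log10 q-value was 18.5, on 107 dexamethasone reads and 24 mock reads. The ratio after depth scaling was 3.51, with an interval of 2.24 to 5.72. Of the nuclear summits, 25.4% had a lower fold and 43.3% had fewer dexamethasone reads, so the GRF3 peak was near the middle of the list in reads and in its lower part in fold. No match to the core with at most 1 mismatch lay within 150 bp of this summit. The best match, AGAGTGG with the differences C1A and C2G, was centred 1 bp from the summit. A match with 2 mismatches was found within 150 bp of all 1177 nuclear summits and in 99.7% of the windows to the left, so it carries no information on its own.

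**Figure D2:**
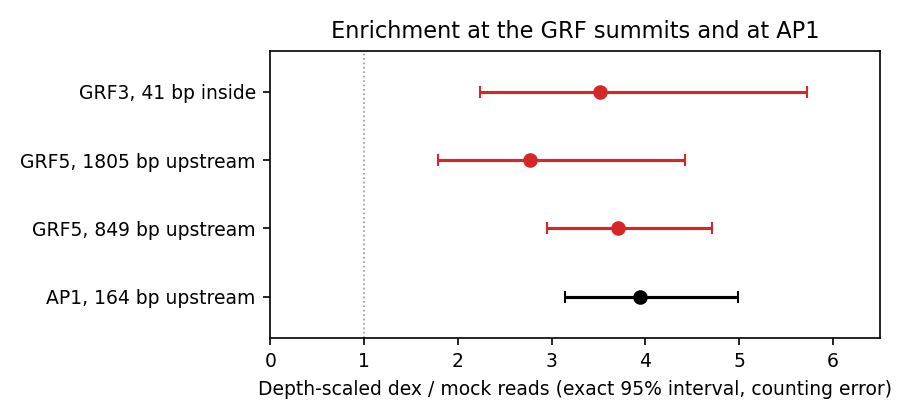
Depth-scaled ratio of dexamethasone to mock reads (x axis) at the 3 GRF summits and the AP1 promoter summit, with bars for the exact 95% interval of the counts in the pooled libraries. The 4 intervals overlap each other, with ratios of 3.51 at GRF3, 2.77 and 3.71 at GRF5 and 3.94 at AP1. All lie above 1, which the peak calling on these same reads fixed in advance.

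By the rule, 22.2% of the GRF genes had a summit, beside 4.32% of all protein-coding genes. GRF5 was among the 0.543% of protein-coding genes with 2 or more summits. Because the family was picked from these results, nothing is read from the difference.

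The 7 genes without an assigned summit differed in how far they lay from the nearest one. GRF2 (AT4G37740, chromosome 4, 17725337 to 17727909, minus strand) was the member just outside the rule. A peak at 17722270 to 17722631, with its summit at 17722515, lay 2822 bp past the 3′ end of GRF2. Its fold was 6.66, on 159 dexamethasone reads over a background at the genome-wide floor of 17.97 mock reads. This fold was higher than at any of the 3 assigned summits, but those were set against their local mock reads. The near GRF5 summit had more dexamethasone reads (424). Over the same floor its depth-scaled ratio was 18.6, against 6.97 at the summit past GRF2. The summit past GRF2 was also 1124 bp upstream of the start of bZIP7 (AT4G37730), to which the rule assigned it. Another summit, at 17734297, lay 6388 bp upstream of GRF2 and 5217 bp upstream of AINTEGUMENTA (ANT, AT4G37750), an AP2-type gene that also promotes organ growth. Its fold was 3.29 on 78 dexamethasone reads. Neither summit had an exact core within 150 bp.

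For GRF9 (AT2G45480) the nearest summit lay 28622 bp away. The corresponding distance was 48848 bp for GRF8 (AT4G24150), 52466 bp for GRF1 (AT2G22840) and 60409 bp for GRF7 (AT5G53660). It was 92497 bp for GRF4 (AT3G52910). Between 6 protein-coding genes (GRF9) and 30 protein-coding genes (GRF4) stood between these members and the nearest summit, all of which lay upstream. GRF6 (AT2G06200), the member closest to GRF5 in sequence, lay in a stretch of chromosome 2 that held no summit over 3.88 Mb, from 1169417 to 5050874, and its nearest summit was 1256759 bp away. This was the second longest of 1172 gaps between neighbouring nuclear summits, whose median was 40.3 kb, and 404 protein-coding genes lay inside it. MIR396a, one of the loci for miR396, lay in the same stretch. Only uniquely mapped reads were kept, and their coverage of this stretch was not examined, so nothing is read from the gap. A gene without a peak is below the threshold of the list and its reads are not known. The weakest nuclear peaks held 72 dexamethasone reads at the genome-wide floor, so weaker binding was not detectable at this depth.

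**Figure D3:**
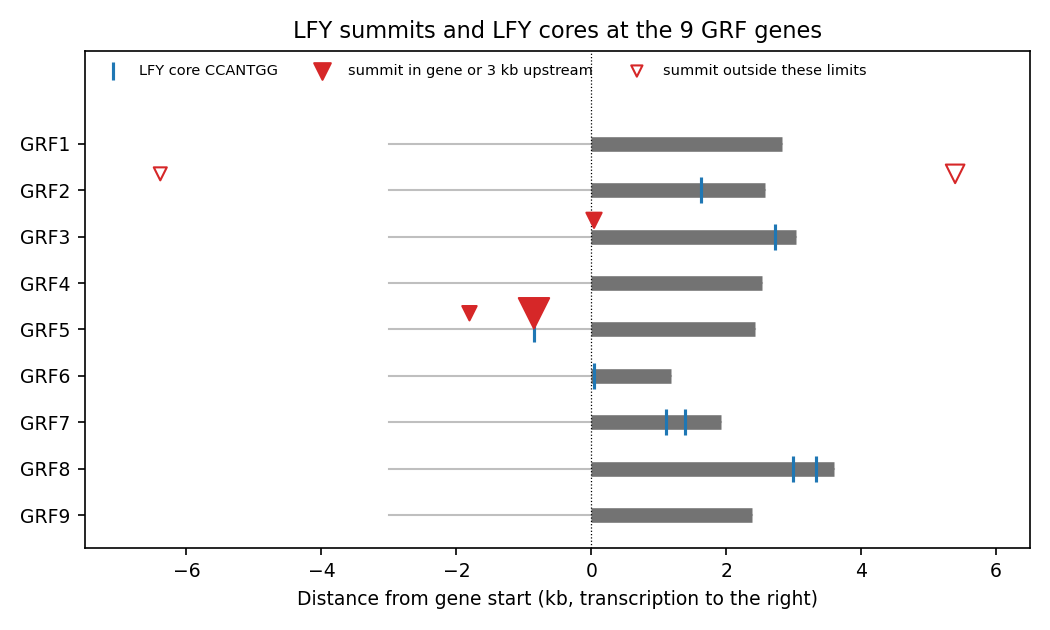
Map of the 9 GRF genes drawn from the gene start (x axis, kb), with grey bars for genes, thin lines for the 3 kb upstream, blue ticks for exact CCANTGG cores in these regions and triangles for summits, whose area follows the dexamethasone reads (filled, within the rule; open, outside it). The single core outside coding sequence lies under the large GRF5 triangle, and GRF2 has an open triangle on each side.

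The core itself was not limited to the bound members. In the gene and its 3 kb upstream, 6 of the 9 GRF genes held at least 1 exact core, and 56.4% of all protein-coding genes did so under the same limits. GRF7 and GRF8 had 2 cores each, GRF2, GRF3, GRF5 and GRF6 had 1 each, and GRF1, GRF4 and GRF9 had none. Of these 8 cores, 7 lay in coding sequence. The remaining core, 854 bp upstream of the GRF5 start, was the only one that lay outside coding sequence, and also the only one within 150 bp of a summit. The share of cores in coding sequence over all genes is not given here, and nothing is read from 1 core. The core of GRF3, CCATTGG at 15270383 to 15270389, lay 2688 bp from the GRF3 summit, toward the other end of the gene. The core of GRF2, at 17726273 to 17726279, lay 3761 bp from the nearest summit.

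Other sequence elements were searched at the 3 assigned summits, and the share of all nuclear summits that held each is given beside it. With 3 summits, nothing is read from few or no matches. Within 150 bp, on both strands, none of the 3 held the G-box CACGTG (12.0% of all nuclear summits), the repeat GAGAGAG (10.03%), the telo box AACCCTA (5.95%) or TGTCAGG, the element bound by GRF7 (1.27%). The W-box TTGACC, bound by WRKY factors, occurred once, 82 bp from the far GRF5 summit, and was present at 25.7% of all nuclear summits.

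The members with and without a summit were then set against a property that the ChIP did not use, the match to miR396. The mature strands of miR396a (chr2:4142443-4142463, minus strand) and miR396b (chr5:13611808-13611828, plus strand), read from the reference at their RefSeq annotation, differ only in the last base. The seed, bases 2 to 8, is in capitals.
miR396a: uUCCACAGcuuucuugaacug
miR396b: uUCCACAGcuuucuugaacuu

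A search of the coding sequences without gaps left 5 to 7 mismatches in every member. With 1 extra base in the target, a pairing chosen after seeing the data, 7 members had a site with 1 or 2 mismatches. In all, 12 of the 27444 protein-coding genes had such a site, these 7 included. GRF5 and GRF6 were the members without such a site, with 6 and 7 mismatches at best. Paralogues shared the same 22 bases, so that 4 sequences cover the 7 genes. They are shown as DNA with the extra base in capitals, and the best stretch of GRF5 follows for contrast.
GRF1 (chr2:9729944-9729965, plus strand) and GRF2 (chr4:17726404-17726425, minus strand): tcgttcaagaaagCctgtggaa
GRF3 (chr2:15271745-15271766, minus strand) and GRF4 (chr3:19617293-19617314, minus strand): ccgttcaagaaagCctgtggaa
GRF7 (chr5:21795145-21795166, plus strand) and GRF8 (chr4:12538649-12538670, plus strand): tcgttcaagaaagcAtgtggaa
GRF9 (chr2:18746292-18746313, plus strand): acgttcaagaaagcTtgtggaa
GRF5 (chr3:4609876-4609897, plus strand): atgttcaacaaacctAcaagaa

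Of the 2 members with a summit, GRF3 therefore carried a miR396 site in its coding sequence and GRF5 did not. GRF6 was the other member without a site and had no summit.

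**Figure D4:**
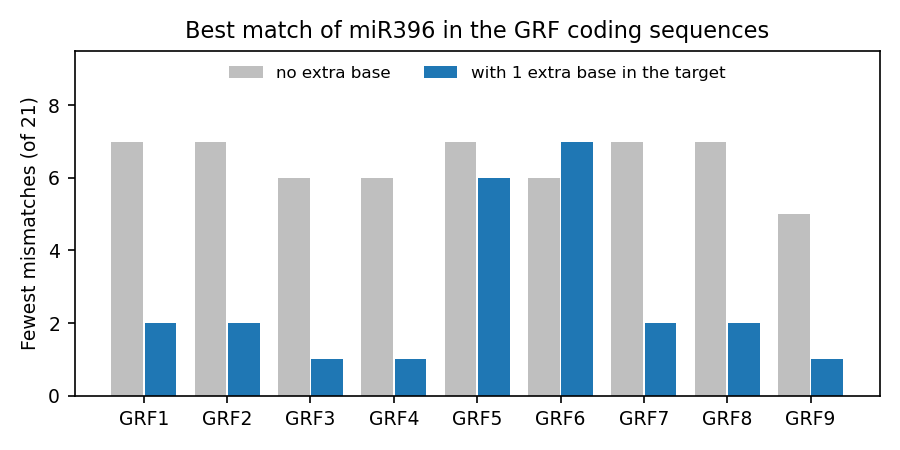
Fewest mismatches (y axis, of the 21 bases of miR396a or miR396b) in the coding sequence of each GRF gene, without an extra base (grey) and with 1 extra base in the target (blue). The blue bars are at 1 or 2 in 7 genes, and at 6 in GRF5 and 7 in GRF6.

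The bound members were not each other's closest relatives. GRF3 was closest to GRF4, with 75.8% identical residues over the shorter protein, and GRF5 was closest to GRF6, with 41.0%. GRF3 and GRF5 shared 29.97%. Each bound gene thus had a closest paralogue without a summit under the rule. With 2 of 9 members called, nothing is read from this. GRF1 and GRF2 shared 62.3% and GRF7 and GRF8 shared 36.4%, and these 4 genes had no summit under the rule.

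The other genes of the pathway were taken from lists of 21 loci, and 1 of them, or 4.76%, had a summit in the gene or 3 kb upstream. This is close to the 4.32% of all protein-coding genes, so it is no result about the lists. None of the 3 GIF coactivator genes had a summit, and AN3 (GIF1, AT5G28640), the coactivator that acts with GRF5 in leaf growth, was 163562 bp from the nearest. Neither MIR396a nor MIR396b had a summit, nor did any of the 5 miR319-targeted TCP genes, of which TCP4 (AT3G15030) lay 55374 bp from the nearest. The 3 SWI/SNF genes, the chromatin remodelling ATPases BRM and SYD and the subunit gene CHC1 (SWP73B), had none, with the nearest summit 4518 bp upstream of CHC1.

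Among 8 genes placed downstream of GRF or AN3 activity, CYTOKININ RESPONSE FACTOR 2 (CRF2, AT4G23750) was the only one with a summit. With 4.32% of all protein-coding genes called, nothing is read from 1 of 8. The summit, at 12375237, stood 885 bp before the gene, and its fold was 4.33 on 103 dexamethasone reads over a background at the genome-wide floor. CONSTANS-LIKE 5 (COL5, AT5G57660) had a summit 590 bp past its 3′ end, outside the rule, with a fold of 4.33 on 125 dexamethasone reads over 22 mock reads. Summits also lay 4288 bp downstream of DREB2A, a stress response gene that GRF7 represses, and 4839 bp downstream of KNAT2, a KNOX homeobox gene. For KNAT1, HEC1, ARR4 and CYCB1;1 the nearest summit was at least 28217 bp away.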

How the data were processed

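Per the study's methods, the authors trimmed reads, mapped them to TAIR10 with Bowtie2 (version 2.3.1 in the submitters' processing notes), kept uniquely mapped reads and called peaks with MACS2 on 3 pooled dexamethasone libraries against 3 pooled mock libraries. The deposited fold enrichment is a ratio, dexamethasone pileup plus 1 over local mock background plus 1. The deposited −log10 p-values and −log10 q-values belong to the summit, and the deposited integer score was not used. The list held 1181 peaks, 1177 of them nuclear, which were used.

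Reads at each summit were recovered by solving fold and p-value under the Poisson model of MACS2, which gave a solution for all 1181 peaks. MACS2 takes the largest of several mock backgrounds, which can bias ratios downwards. These are a genome-wide floor of 17.97 reads and the local reads in the summit window, 1 kb and 10 kb. At the 3 GRF summits and the AP1 promoter summit the largest was the summit window. Peaks were also selected on these same reads, which can bias ratios upwards. Reads carry no molecular identifiers, and intervals (exact Clopper-Pearson, on the dexamethasone share of both counts) cover counting error only. The solver and the motif search were tested on simulated data. Depth per library is not known from the list. Landsberg erecta was read with the Columbia sequence (RefSeq TAIR10.1).

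Proteins were translated from the longest annotated coding sequence and aligned globally (Biopython 1.88, BLOSUM62, gap penalties 10.5 and 0.5, end gaps free). SciPy 1.17.1 gave the intervals. All 9 members are named, as is each pathway gene with a summit, and the pathway genes named without one were chosen after their distances were seen. The members and lists were chosen with earlier results of these data known. Alternatives varied the assignment of peaks, the q-value threshold, the motif window and the background.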

Additional observations from a re-analysis of the deposited data

How the results depend on the processing

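Of 42 values recomputed under alternatives, 28 stayed within a margin of 1.5 times for counts and shares, or within the exact 95% interval for ratios. GRF5 kept a summit under every assignment and threshold tried. This outcome was set in advance, because its near summit, 849 bp upstream with a −log10 q-value of 82.6, lay inside all these limits. With a −log10 q-value of at least 20, or of at least 50, 1 GRF gene with 1 summit was left in place of 2 genes with 3 summits, the near GRF5 summit. The share of all protein-coding genes with a summit was 2.43% with 1 kb upstream, 6.61% with 3 kb downstream added, 2.72% at a −log10 q-value of 20 and 0.998% at 50. Pathway genes with a summit numbered 2 with 5 kb upstream, 2 with 3 kb downstream added and 0 at a −log10 q-value of 50. Adding 3 kb downstream also brought in GRF2, for 3 genes and 4 summits. With up to 1 mismatch, 2 of the 3 GRF summits had a core in place of 1. Over the genome-wide floor in place of the local mock reads, the ratio at the near GRF5 summit was 18.6 in place of 3.71. At the far GRF5 summit it was 4.16 in place of 2.77, and at GRF3 4.69 in place of 3.51, both inside their intervals. Without an extra base no GRF gene (0 of 9) matched miR396 with at most 2 mismatches, and with 1 extra base, chosen after seeing the data, 7 did. These shifts follow from which peaks, bases or background each alternative admits. No paired analysis was possible because the libraries were pooled before peak calling, and for the same reason no replicate could be left out. The far GRF5 peak lay near the threshold of the list, and binding below that threshold at other members was not detectable here.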
